A study of Homo sapiens with 9 samples.

Results

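The S100 family of calcium-binding proteins was followed across kidney cell lines through 10 of its members, S100A2, S100A3, S100A4, S100A6, S100A10, S100A11, S100A13, S100A14, S100A16 and S100P. They were chosen by name, through the NCBI gene identifier of each row, and are 10 of the 21 S100 genes and of the 28395 genes in the table. RNA was sequenced from 3 lines grown stably in Plasmax, a medium modelled on the nutrients of human serum. HK2 is an immortalised line from normal proximal tubule, labelled parental. 786-O is a line from a primary clear cell renal cell carcinoma (ccRCC), also labelled parental, and 786-M1A is its metastatic derivative, recovered from lung metastases after injection in vivo. There were 3 libraries per line and no treatment, and each state of disease was represented by 1 line. HK2 also came from another donor than the cancer lines, so the state of disease and the line cannot be told apart. The libraries came from replicate cultures, and p-values measure only the spread between them.

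S100 proteins are small EF-hand proteins that mostly work as dimers. On binding calcium they expose a surface that docks onto partners such as annexins and cytoskeletal motors, and some members act outside the cell on receptors such as RAGE. S100A10 is an exception, since it does not bind calcium and forms a complex with annexin A2 at the plasma membrane. Most S100 genes lie on chromosome 1q21, within a region that also holds genes of the epidermal barrier.

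All members but S100P lie on chromosome 1 of GRCh38, and S100P lies on chromosome 4. S100A10 (chr1:151982915-151993859) and S100A11 (chr1:152032506-152037004) stand apart from the main cluster, in which S100A6 (chr1:153534599-153535991), S100A4 (chr1:153543621-153545806), S100A3 (chr1:153547329-153549258), S100A2 (chr1:153561108-153565844), S100A16 (chr1:153606883-153613137), S100A14 (chr1:153614255-153616325) and S100A13 (chr1:153618799-153634361) follow one another on the minus strand. The sequences shown are the bases upstream of the annotated start of 3 members that fell against HK2 (S100A2, S100A3 and S100A4) and of 2 that rose (S100A11 and S100A16), from RefSeq on GRCh38.p14, read 5′ to 3′ on the minus strand and limited to bases outside annotated exons. Capitals mark CG dinucleotides, the sites of DNA methylation.
S100A2 promoter, chr1:153565845-153566094: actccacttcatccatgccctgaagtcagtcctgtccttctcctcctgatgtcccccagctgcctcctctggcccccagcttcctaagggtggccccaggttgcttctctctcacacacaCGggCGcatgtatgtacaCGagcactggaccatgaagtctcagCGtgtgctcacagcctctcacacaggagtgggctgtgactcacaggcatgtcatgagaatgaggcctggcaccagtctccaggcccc
S100A3 promoter, chr1:153549259-153549508: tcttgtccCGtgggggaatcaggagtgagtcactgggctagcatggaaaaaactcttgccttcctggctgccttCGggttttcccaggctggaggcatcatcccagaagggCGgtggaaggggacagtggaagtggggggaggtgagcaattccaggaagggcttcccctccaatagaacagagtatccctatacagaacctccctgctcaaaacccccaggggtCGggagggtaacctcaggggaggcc
S100A4 promoter, chr1:153545807-153546056: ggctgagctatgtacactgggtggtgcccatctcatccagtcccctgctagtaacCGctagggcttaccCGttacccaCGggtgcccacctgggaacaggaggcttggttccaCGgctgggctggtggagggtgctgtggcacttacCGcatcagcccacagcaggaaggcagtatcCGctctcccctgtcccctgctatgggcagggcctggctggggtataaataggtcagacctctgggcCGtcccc
S100A11 promoter, chr1:152037005-152037254: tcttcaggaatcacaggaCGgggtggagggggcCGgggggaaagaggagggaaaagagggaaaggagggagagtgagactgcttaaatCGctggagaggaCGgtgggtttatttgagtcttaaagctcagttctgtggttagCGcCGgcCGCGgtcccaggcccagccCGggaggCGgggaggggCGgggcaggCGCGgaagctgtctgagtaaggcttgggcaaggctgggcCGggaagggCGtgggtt
S100A16 promoter, chr1:153613146-153613387: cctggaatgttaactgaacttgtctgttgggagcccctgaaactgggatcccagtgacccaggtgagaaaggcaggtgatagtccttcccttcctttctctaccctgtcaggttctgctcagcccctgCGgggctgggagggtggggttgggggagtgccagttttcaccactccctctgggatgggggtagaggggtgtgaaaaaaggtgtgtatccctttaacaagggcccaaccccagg

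All 10 members had a promoter in the RefSeq table, and over its 35116 promoters the median number of CG dinucleotides in the 250 bases before the start was 11. These counts, and the motif searches below, used the whole window, including bases in annotated exons. S100A6 and S100A10 each had 24, a number that exceeded 76.3% of all promoters. All 250 bases of the S100A6 window lay within annotated S100A6 exons, and parts of the windows of S100A13, S100A14 and S100A16 lay in exons. S100A11 and S100A13 had 15 each, and S100A4 had 7. S100A2, S100A3, S100A14 and S100P had 4 each, above 29.3% of promoters, and S100A16 had 1, above 6.06%. Of the members below the median, S100A2, S100A3, S100A4 and S100A14 were lower in the cancer lines, S100A16 was higher and S100P was barely detected. A relation of CG number to the direction of the difference was not tested. The AP-1 motif TGACTCA, searched on both strands, was present in the windows of S100A2 and S100A3 among the members, against 4.20% of all promoters. The TATA-box motif TATAAA, on either strand, was present in those of S100A4 and S100P, against 10.7%. The cores ACGTG and GCGTG, which are parts of hypoxia response elements, were found in 18.5% and 32.2% of promoters. ACGTG was in no member's window at its first listed start, and GCGTG was in those of S100A2, S100A6, S100A10, S100A11 and S100A13. These are matches of letters only, and S100A2, S100A13 and S100A16 have further annotated starts.

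Totals per library lay between 30212291 and 45362428 counts, so that 3 counts corresponded to 0.0649 to 0.0966 CPM (counts scaled to library size with TMM factors). The 9 proximal tubule markers summed to 109 to 115 CPM in HK2, 193 to 199 in 786-O and 107 to 118 in 786-M1A. GGT1 and ANPEP made up most of these sums but moved in different directions. GGT1 was at 108, 80.6 and 88.3 CPM in HK2, 786-O and 786-M1A, and ANPEP at 1.75, 112 and 19.8. LRP2, the defining receptor megalin, was at 0 in all libraries. The 6 renal and ccRCC markers summed to 1633 to 1733 CPM in HK2, 5550 to 5617 in 786-O and 7472 to 7607 in 786-M1A, most of it VIM. Among them the lineage factor PAX8 was at 160 to 192 CPM in all libraries, and the hypoxia target CA9 was at most at 0.0709 CPM. The others were higher in both cancer lines than in HK2. Means in HK2, 786-O and 786-M1A were 19.4, 163 and 330 CPM for VEGFA and 99.2, 389 and 491 for CCND1. For PAX2 they were 3.49, 25 and 10.7 CPM. The 5 epithelial markers summed to 1258 to 1301 CPM in HK2, 454 to 492 in 786-O and 723 to 818 in 786-M1A. They did not move together. KRT19 was at 106, 5.9 and 186 CPM in HK2, 786-O and 786-M1A. EPCAM was at 74.1, 0.573 and 8.86 CPM, and CDH1 at 4.53, 0.0931 and 0.00922. KRT8 and KRT18 were lower in both cancer lines than in HK2, and higher in 786-M1A than in 786-O. The part of these markers in the S100 differences was not tested. PTPRC and CD3E, which define leukocytes, were at 0 in all libraries, and the 5 leukocyte markers, nearly all CD68, summed to 49.6 to 53.9 CPM in HK2, 26.8 to 27.8 in 786-O and 34.2 to 37.6 in 786-M1A. The 3 endothelial markers summed to at most 0.124 CPM in any library. The 3 fibroblast markers, nearly all LUM, summed to 22 to 23.2 CPM in HK2, 13.8 to 15.3 in 786-O and 4.95 to 6.06 in 786-M1A. The libraries came from cultures of single lines, not from mixed tissue. In bulk RNA, fewer cells holding a transcript and less of it per cell cannot be told apart.

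The S100 mRNA pool of all 3 lines was made up mostly of few members. The 10 members summed to 1733 ± 66.6, 1632 ± 24.3 and 1978 ± 74.9 CPM in HK2, 786-O and 786-M1A (mean ± SD, n = 3 each). S100A6, S100A10, S100A11 and S100A16 together held 89.9% of this sum in HK2, 94.9% of it in 786-O and 96.8% of it in 786-M1A. S100A2, S100A3 and S100A4 together fell from 119 ± 8.48 CPM in HK2 to 36 ± 1.95 in 786-O and 13.5 ± 0.253 in 786-M1A. The plot of CPM by library shows 5 members at similar levels in the 3 lines, and S100A2, S100A3, S100A4 and S100A14 higher in HK2 than in the cancer lines.

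**Figure D1:**
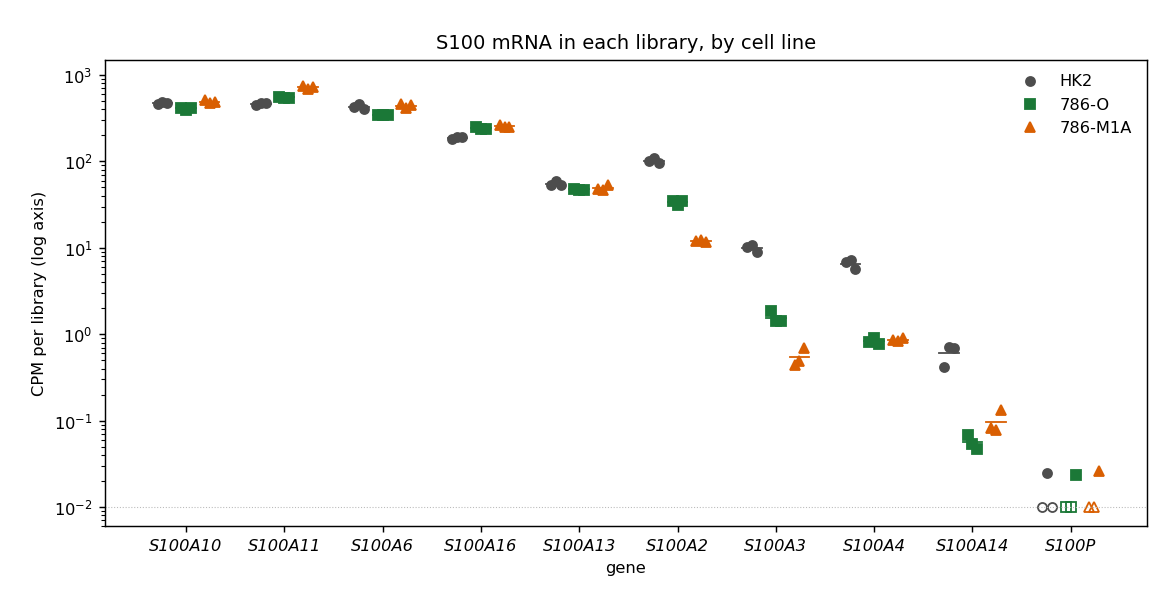
TMM-normalised CPM (log axis) of the 10 S100 genes in each of the 9 libraries, with HK2 as grey circles, 786-O as green squares and 786-M1A as orange triangles. Short lines are means of 3 libraries, and open symbols on the dotted line stand for libraries with 0 counts. S100A2, S100A3, S100A4 and S100A14 sit lower in both cancer lines than in HK2, S100A6, S100A10, S100A11, S100A13 and S100A16 stay within 1.55-fold of HK2, and S100P is near 0 throughout.

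Levels of different genes were compared per transcript length, as RPKM on the canonical transcript. In HK2 the order was S100A6 at 989 RPKM, S100A11 at 828, S100A10 at 708, S100A16 at 160, S100A13 at 116, S100A2 at 104, S100A3 at 13.4, S100A4 at 12.8 and S100A14 at 0.579. S100A13 and S100A2 overlapped between libraries in HK2, as did S100A3 and S100A4, and all other neighbours in the order were separate. In 786-O S100A11 came first at 979 RPKM, before S100A6 at 793 and S100A10 at 611, and no neighbours overlapped down to S100A4 at 1.62. In 786-M1A S100A11 was again first at 1288 RPKM, S100A6 followed at 1018 and S100A10 at 734. The low end changed order between the cancer lines, with S100A3 at 2.1 RPKM above S100A4 at 1.62 in 786-O, and S100A4 at 1.68 above S100A3 at 0.73 in 786-M1A.

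Of the 10 members, 8 averaged 50 counts or more per library and were tested with edgeR's quasi-likelihood test, with Benjamini-Hochberg adjustment over 12695 genes. S100A14 and S100P were not tested. S100A3 and S100A4 passed this filter only through their level in HK2, so that the numbers of members called are a description. Against HK2, 786-O differed in 8 of 8 members, 2 higher and 6 lower, where 84.2% of all genes tested were called, 41.6% higher and 42.6% lower. At least 2-fold differences were seen in 3 of the 8, all lower, beside 22.3% of all genes and 13.1% in that direction. In 786-M1A against HK2, 6 of 8 were called, 2 higher and 4 lower, beside 84.9% of all genes (41.6% higher, 43.3% lower). A 2-fold difference was seen in 3 of them, all lower, beside 25.4% of all genes and 15.0% in that direction. In 786-M1A against 786-O, 5 of 8 were called, 3 higher and 2 lower, beside 56.0% of all genes (27.9% higher, 28.0% lower). Here 2 fell at least 2-fold, beside 6.59% of all genes in both directions and 4.55% lower. The median log2 fold change of the 8 members was -0.27, -0.06 and 0.07 in these comparisons, beside -0.01, -0.02 and 0.00 over all genes tested. Both comparisons with HK2 share its 3 libraries, and no relation between them was drawn. With 3 libraries against 3, the exact two-sided permutation test of a single gene cannot give a p below 0.1.

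**Figure D2:**
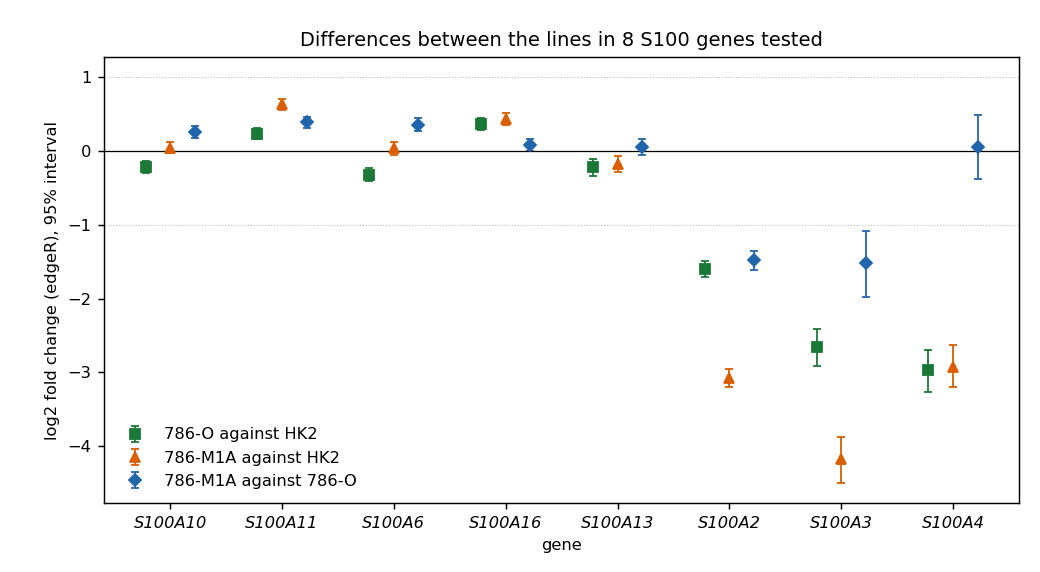
Log2 fold change with its 95% interval from edgeR for the 8 S100 genes tested, in 786-O against HK2 (green squares), 786-M1A against HK2 (orange triangles) and 786-M1A against 786-O (blue diamonds). Dotted lines mark 2-fold. S100A2 and S100A3 lie below -1 in all 3 comparisons, and S100A4 lies near -3 against HK2 and at 0.06 between the cancer lines.

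Of the 8 members tested, those that differed by more than 2-fold were S100A2, S100A3 and S100A4, adjacent genes of the cluster that all lay lower in the cancer lines. S100A2 is a nuclear S100 protein of epithelial cells. It was measured at 101, 109 and 95.6 CPM in HK2, 34.8, 31.5 and 34.6 in 786-O, and 12.1, 12.4 and 11.7 in 786-M1A. The 3 lines did not overlap, with HK2 highest and 786-M1A lowest. S100A2 was 3.03-fold lower in 786-O than in HK2 (log2 fold change -1.60 ± 0.052 SE, adjusted p = 1.84e-17, edgeR). A further 2.79-fold difference separated 786-M1A from 786-O (-1.48 ± 0.063, adjusted p = 1.73e-14, edgeR), which made 786-M1A 8.44-fold lower than HK2 (-3.08 ± 0.060, adjusted p = 1.47e-21, edgeR). The permutation p was 0.1 in each comparison.

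S100A3, a zinc- and calcium-binding member best known from the hair cuticle, showed the same order of the lines at a lower level. It was measured at 10.1, 10.7 and 8.97 CPM in HK2, 1.85, 1.41 and 1.42 in 786-O, and 0.443, 0.495 and 0.688 in 786-M1A. No library of one line reached those of another, although 786-M1A rested on only 16, 19 and 26 counts. S100A3 was 6.31-fold lower in 786-O than in HK2 (log2 fold change -2.66, 95% interval -2.91 to -2.41, adjusted p = 4.90e-15, edgeR). In 786-M1A it was 2.88-fold lower again than in 786-O (-1.52, -1.97 to -1.08, adjusted p = 3.17e-06, edgeR) and 18.1-fold lower than in HK2 (-4.18, -4.50 to -3.87, adjusted p = 9.30e-17, edgeR).

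S100A4, also called metastasin for its link to motility and metastasis, was low in all lines and lowest in both cancer lines. Its values were 6.86, 7.18 and 5.69 CPM in HK2, 0.812, 0.903 and 0.78 in 786-O, and 0.858, 0.834 and 0.899 in 786-M1A. HK2 lay above all cancer libraries, while 786-O and 786-M1A overlapped. S100A4 was 7.86-fold lower in 786-O (log2 fold change -2.97 ± 0.14 SE, adjusted p = 7.03e-15, edgeR) and 7.54-fold lower in 786-M1A (-2.92 ± 0.14, adjusted p = 1.22e-14, edgeR) than in HK2. Between the metastatic derivative and 786-O no difference was detected, with a log2 fold change of 0.06 and a 95% interval of -0.37 to 0.49 (adjusted p = 0.833, edgeR; exact permutation p = 0.5). The cancer libraries held 31 to 36 counts each. S100A4 and S100A5 overlap on the same strand, and S100A3 and S100A4 both overlap LOC101928034, so that the split of reads between them is uncertain.

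The most abundant members differed by less than 2-fold. S100A11, which binds annexin A1 and takes part in membrane repair and growth control, was the member that rose at each step. It was measured at 444, 478 and 476 CPM in HK2, 558, 548 and 548 in 786-O, and 750, 697 and 728 in 786-M1A. The lines did not overlap and 786-M1A was highest. S100A11 was 1.18-fold higher in 786-O than in HK2 (log2 fold change 0.24 ± 0.037 SE, adjusted p = 3.33e-06, edgeR) and 1.31-fold higher in 786-M1A than in 786-O (0.39 ± 0.037, adjusted p = 8.57e-09, edgeR), and 1.55-fold higher in 786-M1A than in HK2 (0.64 ± 0.037, adjusted p = 4.72e-13, edgeR). RefSeq lists 10 pseudogenes of S100A11, of which 0 are in the table.

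S100A6 (calcyclin, which binds the ubiquitin-ligase adaptor CACYBP) and S100A10 (p11, the annexin A2 partner that docks plasminogen) shared another course, lower in 786-O and back near the HK2 level in 786-M1A. S100A6 was at 421, 459 and 408 CPM in HK2, 341, 342 and 349 in 786-O, and 460, 417 and 448 in 786-M1A. S100A10 was at 458, 491 and 475 CPM in HK2, 417, 397 and 416 in 786-O, and 511, 473 and 493 in 786-M1A. For both genes 786-O lay below all other libraries, and HK2 and 786-M1A overlapped. The log2 fold change of 786-O against HK2 was -0.32 for S100A6 (adjusted p = 6.96e-07, edgeR) and -0.21 for S100A10 (adjusted p = 2.76e-05, edgeR). From 786-O to 786-M1A it was 0.36 for S100A6 (adjusted p = 4.09e-07, edgeR) and 0.26 for S100A10 (adjusted p = 4.58e-06, edgeR). Between 786-M1A and HK2 the 95% interval was -0.05 to 0.13 for S100A6 (adjusted p = 0.375, edgeR) and -0.03 to 0.13 for S100A10 (adjusted p = 0.205, edgeR). Without HK2 replicate 2, S100A6 was called in this comparison at 0.09 (adjusted p = 0.0428, edgeR), and its direction turned to -0.01 with upper-quartile normalisation.

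S100A16, a broadly expressed member of the cluster, was higher in both cancer lines. It was measured at 182, 191 and 191 CPM in HK2, 251, 238 and 238 in 786-O, and 267, 253 and 249 in 786-M1A. HK2 lay below all cancer libraries, which overlapped with each other. Relative to HK2, the difference in S100A16 on the log2 scale was 0.37 in 786-O (adjusted p = 1.43e-08, edgeR) and 0.44 in 786-M1A (adjusted p = 5.59e-10, edgeR), and the cancer lines differed by 0.08 (adjusted p = 0.0894, edgeR). This last value passed the threshold without 786-O replicate 1, at 0.11 (adjusted p = 0.0342, edgeR).

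S100A13, which takes part in the release of FGF1 and interleukin 1 alpha, was the most level of the members tested. It was at 54, 59.2 and 52.7 CPM in HK2, 48.3, 46.5 and 47.2 in 786-O, and 47.9, 46.8 and 53.1 in 786-M1A. HK2 lay above 786-O, and 786-M1A overlapped with both. S100A13 was 1.17-fold lower in 786-O than in HK2 (log2 fold change -0.22, adjusted p = 4.93e-04, edgeR) and 1.12-fold lower in 786-M1A than in HK2 (-0.17, adjusted p = 0.00571, edgeR). The second difference was not called without HK2 replicate 2, at -0.11 (adjusted p = 0.0518, edgeR). Between the cancer lines the value was 0.06 with a 95% interval of -0.05 to 0.17 (adjusted p = 0.381, edgeR). S100A13 overlaps S100A1 and CHTOP on the opposite strand, and the use of strand in counting is not given in the sources used here.

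The 2 members below the filter were near the limit of detection. S100A14, a member known from squamous epithelium, had 13, 29 and 32 counts in HK2, 3, 2 and 2 in 786-O, and 3, 3 and 5 in 786-M1A. HK2 lay above the cancer libraries, and the ratio of the summed counts, scaled for library size, was 11.2 for HK2 over 786-O (95% counting interval 5.16 to 28.8, exact) and 6.43 for HK2 over 786-M1A (3.39 to 13.4). These intervals cover counting error only. When edgeR was run without the filter, S100A14 was lower in 786-O (adjusted p = 9.97e-13, edgeR) and in 786-M1A (adjusted p = 2.01e-09, edgeR) than in HK2. These p-values are not on the scale of the main fit. For S100A2 in 786-O against HK2, the adjusted p was 5.70e-230 without the filter and 1.84e-17 in the main fit (edgeR). S100P, a member of gut and placental epithelium that is raised in several carcinomas, had 0, 1 and 0 counts in HK2, 0, 0 and 1 in 786-O, and 0, 0 and 1 in 786-M1A. Every library was therefore below the floor of 3 counts for S100P, and no difference was detectable at this depth.

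The remaining 11 S100 genes were below the filter, and all but S100A1 had at most 12 counts in any library. S100A7, S100A7A, S100A7L2, S100A8, S100A9, S100A12, S100B and S100G, which include the calprotectin subunits of myeloid cells and the calbindin of calcium-transporting epithelium, were at 0 in all 9 libraries, which allows up to 3 counts in each. S100Z had 1, 1 and 0 counts in HK2 and 0 in both cancer lines. S100A5 had 5 to 12 counts in every library. S100A1, the cardiac and neuronal member that lies opposite S100A13, had 54, 53 and 53 counts in HK2, 23, 13 and 30 in 786-O, and 11, 13 and 9 in 786-M1A. Its summed counts were 2.56 times higher in HK2 than in 786-O (95% counting interval 1.91 to 3.47) and 4.63 times higher than in 786-M1A (3.17 to 6.96).

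The differences followed no common direction along the chromosome. Of the S100 genes tested, S100A4, S100A3 and S100A2, whose starts lie 9.81, 13.3 and 29.9 kb from that of S100A6, were those that fell by more than 2-fold against HK2. The low-count genes S100A14 at 80.3 kb and S100A1 at 92.4 kb were also lower in the cancer lines by their counts. S100A6 at one end and S100A16 at 77.1 kb on the other side differed by less than 1.5-fold. The genes next to the cluster on one side, PGLYRP3 and PGLYRP4, which encode bacterial peptidoglycan receptors, were at 0 in all libraries. On the other side, CHTOP, an mRNA export factor, was at 89.5, 84 and 84.3 CPM in HK2, 786-O and 786-M1A, and SNAPIN, a vesicle fusion protein, was at 26.9, 24.9 and 26.7. In 786-O against HK2, SNAPIN was called at a log2 fold change of -0.11 (adjusted p = 0.0472, edgeR) and CHTOP was at -0.09 (adjusted p = 0.0522, edgeR). Neither was called in 786-M1A against HK2 (adjusted p = 0.0643 for CHTOP and 0.801 for SNAPIN, edgeR).

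**Figure D3:**
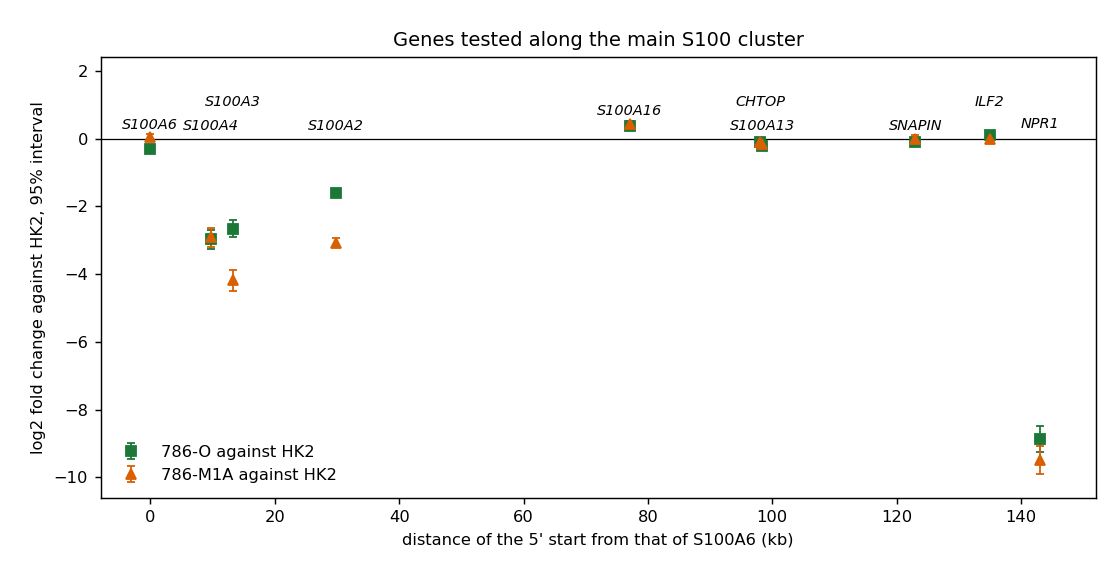
Log2 fold change against HK2 with its 95% interval from edgeR for the 10 genes tested within 150 kb of the S100A6 start, plotted at the distance of each gene's 5′ start from that of S100A6 (kb). Green squares are 786-O and orange triangles are 786-M1A. S100A4, S100A3 and S100A2 lie between -1.60 and -4.18, while S100A6, S100A16, S100A13 and the neighbours CHTOP, SNAPIN and ILF2 lie between -0.32 and 0.44. NPR1 is lowest, at -8.86 and -9.48, values that depend on the prior count because its cancer libraries hold at most 4 counts.

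Between S100A10 and 500 kb beyond the cluster, the table holds 59 protein-coding genes outside the S100 family, most of them of the epidermal barrier. Of these 37 were at 0 in all libraries and 14 were tested. Some of these neighbours were picked out after the values were seen. FLG, a fused-type S100 gene that encodes filaggrin, had 1 to 2 counts per library in HK2, 6209 to 6862 in 786-O and 6340 to 8663 in 786-M1A. NPR1, the receptor of atrial natriuretic peptide at 143 kb from the S100A6 start, went the other way, with 858 to 1257 counts in HK2, 2 to 3 in 786-O and 0 to 4 in 786-M1A. TCHH, which was below the filter, differed mainly between the cancer lines. It had 1 to 2 counts in HK2, 6 to 10 in 786-O and 94 to 139 in 786-M1A.

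Among the partners of S100 proteins, the annexins tested were mostly higher in the cancer lines. Annexins are calcium-dependent membrane-binding proteins, and 11 of 13 were tested. ANXA10 and ANXA13 were below the filter and lower in both cancer lines. In HK2, 786-O and 786-M1A, ANXA10 was at 1.17, 0.363 and 0.286 CPM and ANXA13 at 1.13, 0.377 and 0.0353. In 786-O against HK2, 7 were higher and 2 lower, beside 84.2% of all genes called (41.6% higher, 42.6% lower). At least 2-fold differences were seen in 5 that were higher (9.18% of all genes) and 1 that was lower (13.1%). In 786-M1A against HK2, 8 were higher and 3 lower, beside 84.9% of all genes called (41.6% higher, 43.3% lower). Here 5 were at least 2-fold higher (10.4% of all genes). In both comparisons with HK2 these 5 include ANXA8 and its near-identical copy ANXA8L1. In 786-M1A against 786-O, 7 were higher and 2 lower, beside 56.0% of all genes called (27.9% higher, 28.0% lower). At least 2-fold higher were 2 (2.03% of all genes). Their median log2 fold change was 0.21, 0.24 and 0.21 in these comparisons, beside -0.01, -0.02 and 0.00 over all genes tested.

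ANXA1, the S100A11 partner, was measured at 76.9, 84.2 and 76.5 CPM in HK2, 493, 482 and 486 in 786-O, and 592, 573 and 598 in 786-M1A. All cancer libraries lay above HK2, and 786-M1A lay above 786-O. ANXA1 was 6.15-fold higher in 786-O than in HK2 (log2 fold change 2.62 ± 0.041 SE, adjusted p = 3.74e-23, edgeR) and 1.21-fold higher in 786-M1A than in 786-O (0.27 ± 0.037, adjusted p = 2.65e-06, edgeR). ANXA2, the S100A10 partner, rose by 1.15-fold in 786-O (adjusted p = 3.90e-06, edgeR) from a mean of 892 CPM in HK2 to 1029, and was at 1051 CPM in 786-M1A (adjusted p = 0.447 against 786-O, edgeR). The table also lists 3 ANXA2 pseudogenes, which could share its reads. AHNAK, a giant scaffold protein bound by the S100A10-annexin A2 complex, was 1.48-fold higher in 786-O than in HK2 (adjusted p = 0.014, edgeR).

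ANXA3 was lowest in 786-O, as S100A6 and S100A10 were, but did not return to the HK2 level in 786-M1A. Its means were 140, 25.6 and 103 CPM in HK2, 786-O and 786-M1A. The log2 fold change was -2.45 for 786-O against HK2 (adjusted p = 2.37e-22, edgeR), 2.00 for 786-M1A against 786-O (adjusted p = 1.34e-19, edgeR) and -0.45 for 786-M1A against HK2 (adjusted p = 3.88e-10, edgeR). ANXA4 was 2.92-fold higher in 786-O than in HK2 and 1.17-fold lower in 786-M1A than in 786-O. ANXA8L1 was at 5.46, 17.8 and 39.3 CPM in HK2, 786-O and 786-M1A, a rise of 1.69 on the log2 scale to 786-O and of 1.14 from there to 786-M1A. Since ANXA8 is a near-identical copy of ANXA8L1, the split of reads between them is uncertain.

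Of 26 intracellular partners 22 were tested, and in 786-O against HK2 9 were higher and 12 lower, beside 84.2% of all genes called, with a median log2 fold change of -0.20. Between 786-M1A and 786-O 10 were higher and 9 lower, beside 56.0% of all genes called, with a median of 0.07. CACYBP, the S100A6-binding protein, was 1.20-fold lower in 786-O than in HK2 (adjusted p = 4.94e-06, edgeR). It was 1.11-fold higher in 786-M1A than in 786-O (adjusted p = 0.00279, edgeR). S100PBP, a nuclear protein that binds S100P, was higher in both cancer lines than in HK2, at 39.6 and 40.4 CPM against 26.4, although S100P itself was at 0 or 1 count.

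Partners of S100A4 and S100P moved in both directions. MYH9, the non-muscle myosin heavy chain bound by S100A4, was 1.35-fold higher in 786-O than in HK2 (adjusted p = 3.83e-04, edgeR). MYH10, the other non-muscle myosin, fell by 1.30 on the log2 scale in 786-O and by a further 1.33 in 786-M1A, from 335 CPM in HK2 to 136 and 54. EZR, the membrane-cytoskeleton linker ezrin, was at 803, 279 and 406 CPM in HK2, 786-O and 786-M1A. IQGAP1, a scaffold of the actin cortex, was 1.79-fold higher in 786-O than in HK2 and 1.21-fold lower in 786-M1A than in 786-O.

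SYT1, the synaptic calcium sensor bound by S100A13, was at 26.3, 6.07 and 1.35 CPM in HK2, 786-O and 786-M1A, and fell at both steps (adjusted p = 1.65e-16 and 4.90e-12, edgeR). PLA2G4A, the cytosolic phospholipase A2 bound by S100A10, was 2.98-fold lower in 786-M1A than in 786-O (adjusted p = 1.06e-05, edgeR).

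Of 6 cell surface receptors of S100 proteins 4 were tested, and 2 were higher and 1 lower in 786-O against HK2, beside 84.2% of all genes called. Between 786-M1A and 786-O, 0 were higher and 2 were lower, beside 56.0% of all genes called. TLR4 and CD36 were below the filter. In HK2, 786-O and 786-M1A, TLR4 was at 2.2, 0.475 and 0.471 CPM and CD36 at 1.04, 1.11 and 0.0798. AGER, which encodes RAGE, was low, with means of 2.48, 2.57 and 2.8 CPM in HK2, 786-O and 786-M1A, and was not called in any comparison (adjusted p = 0.663, 0.586 and 0.291, edgeR). Without 786-M1A replicate 3 it was called in 786-M1A against HK2, at 0.35 (adjusted p = 0.0498, edgeR). BSG, the S100A9 receptor basigin, was 1.68-fold higher in 786-O than in HK2 (adjusted p = 1.01e-13, edgeR), while its ligand was at 0. MCAM, another receptor of this group, fell at each step, from 208 CPM in HK2 to 98.6 in 786-O and 54.9 in 786-M1A.

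S100A10 with annexin A2 docks plasminogen at the cell surface, and the activators and their receptor were listed with it. Of 7 such genes 5 were tested, with 3 higher and 2 lower in 786-O against HK2, beside 84.2% of all genes called. PLAU, the urokinase activator, was at 279, 45.5 and 71.2 CPM in HK2, 786-O and 786-M1A, and both steps were called (adjusted p = 2.23e-22 and 8.48e-11, edgeR). PLAUR, the urokinase receptor, rose at both steps, from 28.5 to 58.8 and 81.6 CPM. PLAT, the tissue activator, was 22.2-fold lower in 786-O than in HK2, at 0.606 against 13.2 CPM, and passed the filter on low counts only through HK2. PLG, plasminogen itself, was at most at 0.173 CPM in any library.

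**Figure D4:**
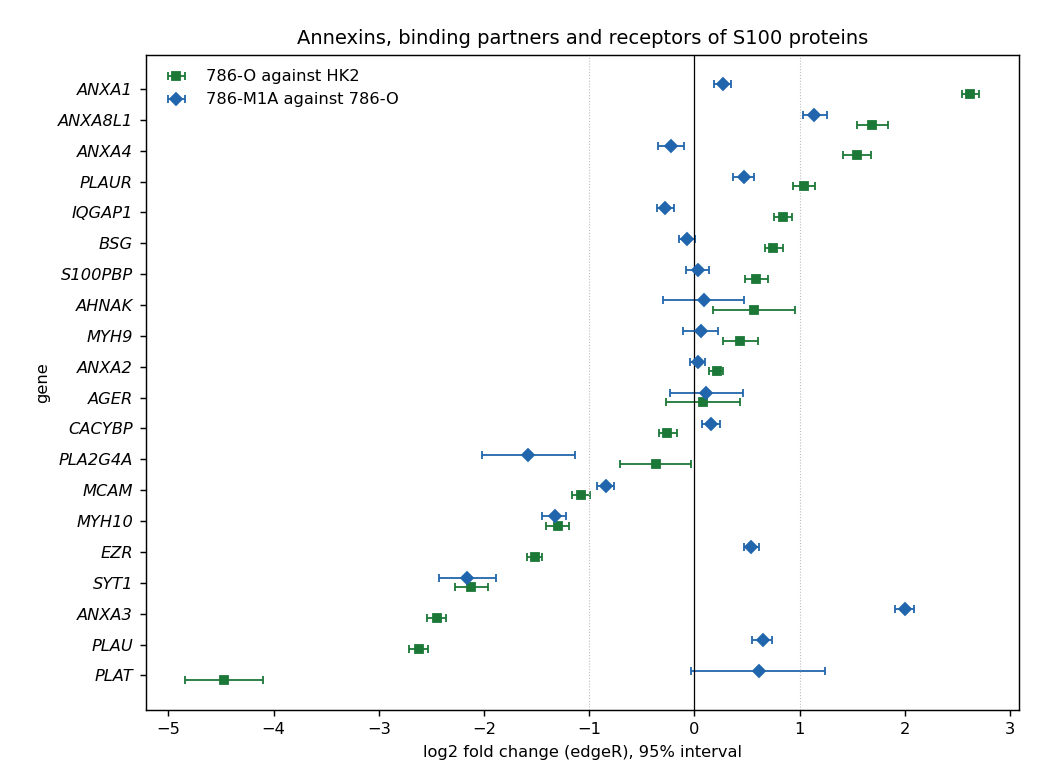
Log2 fold change with its 95% interval from edgeR for the 20 partner genes named, ordered by the value in 786-O against HK2 (green squares), with 786-M1A against 786-O as blue diamonds. Dotted lines mark 2-fold. ANXA1 is highest at 2.62 and PLAT lowest at -4.47 in 786-O against HK2, and between the cancer lines ANXA3 is highest at 2.00 and SYT1 lowest at -2.16.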

How the data were processed

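RNA-seq counts of 3 libraries each of HK2, 786-O and 786-M1A were used, grouped by the titles of the samples. Per the labels and the study's methods, TruSeq Stranded mRNA libraries were sequenced on a NextSeq and reads were assigned to genes on GRCh38 by featureCounts. The authors deposited the counts as whole numbers with no normalisation. The annotation release and the strand setting are not given in the sources used here. The table lists 28395 genes by NCBI identifier, of which 27745 matched a RefSeq symbol.

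The 12695 genes that averaged 50 counts or more per library were normalised with TMM and tested in edgeR 4.0.16 (R 4.3.3), in 1 robust quasi-likelihood fit over all 9 libraries with a coefficient per line and 3 contrasts. P-values were two-sided and adjusted by Benjamini-Hochberg over all genes tested, with a threshold of 0.05. Each standard error is the size of the log2 fold change divided by the square root of F. The exact permutation test used log2 CPM with a prior count of 2. RPKM is mean CPM per kb of the canonical GENCODE transcript. The scripts were tested on simulated data. Alternatives were the RLE and upper-quartile normalisations, DESeq2 1.42.0, limma-voom (limma 3.58.1), no filter, at least 10 counts in every library, only the lines compared, a replicate block, and leaving out each library.

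The members and lists were chosen with earlier results of these data known. Named were all members, the other S100 genes by their counts, 10 fixed partners, and 12 others with the largest 2-fold changes of the partner lists, of which 2 are not reported here. Replicate libraries differed beyond counting noise (chi-square per degree of freedom of 3.11 to 8.67), so all 9 were kept as separate samples.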

Additional observations from a re-analysis of the deposited data

Results flagged for a closer look

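For 5 members the difference from HK2 was not the same in the parental and the metastatic cancer line. The log2 fold change against HK2 in 786-M1A minus that in 786-O was -1.48 for S100A2, -1.52 for S100A3, 0.36 for S100A6, 0.26 for S100A10 and 0.39 for S100A11. Since both comparisons share the HK2 libraries, this difference equals 786-M1A against 786-O, where edgeR's adjusted p lay between 1.73e-14 for S100A2 and 4.58e-06 for S100A10, and for S100A3 was 3.17e-06, with no overlap between the 3 libraries of each line.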

How the results depend on the processing

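The number of members called, the number with a 2-fold difference, and the numbers of annexins and intracellular partners called stayed within 1.5 times the reported values under all alternatives. Of 336 values of the members under alternatives, 331 kept direction and side of the threshold. With each library left out in turn, S100A13 in 786-M1A against 786-O lay between -0.00 (without 786-M1A replicate 3) and 0.09, and S100A6 turned to -0.01 in 786-M1A against HK2 with upper-quartile normalisation. Among partners, AGER in 786-O against HK2 ranged from -0.03 (without 786-O replicate 1; -0.02 without HK2 replicate 3) to 0.17. Without 786-M1A replicate 1, AGER turned to -0.11 against 786-O (highest 0.27) and to -0.03 against HK2 (highest 0.35, called without 786-M1A replicate 3). In 786-M1A against 786-O, AHNAK ranged from -0.03 to 0.20 and MYH9 from -0.01 to 0.10, both lowest without 786-O replicate 3. The cause was not tested. None of the values that turned was called. The replicate numbers did not pair the libraries (correlations of same-numbered deviations from -0.167 to 0.215). With a replicate block, 10688, 7157 and 10797 genes were called against 10693, 7103 and 10784 without it (786-O against HK2, 786-M1A against 786-O, 786-M1A against HK2). The block changed no member's call. Depth limits S100P, S100A14 and S100A3 in 786-M1A, where 1 library held at most 26 counts of S100A3.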
